A study of Homo sapiens with 18 samples.

Results

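The libraries described here are 3 of K562 cells given imatinib for 1 h (IM_1h) and 3 of untreated cells collected in parallel with them (CTRLim), 6 of the 18 samples in the series. They were chosen by treatment and by library set. Readthrough reads per library read were then compared for each of the 13051 transcripts in the table. K562 is an established human erythroleukemia line that carries the BCR-ABL1 fusion kinase, and the imatinib dose was 1 µM. The study sequenced nascent, chromatin-bound RNA as PacBio long reads and counted, per transcript, the reads that continued past the annotated 3′ end. The imatinib set also holds cells kept in 1 µM drug for 18 h (IM_18h), and a second set holds untreated cells (CTRL), cells given 5 µM JTE-607 for 1 h (JTE_1h) and cells given 110 mM KCl for 45 min (KCl_45min). Each group has 3 libraries, which the labels call biological replicates.

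Imatinib occupies the ATP pocket of the ABL kinase and so blocks BCR-ABL1 signalling. In chronic myeloid leukemia cells that kinase activates STAT5, the RAS and ERK cascade, and PI3K with AKT, and AKT keeps FOXO transcription factors out of the nucleus. Genes such as PIM1 and CISH are direct STAT5 targets with short-lived RNA, which makes them early reporters of the pathway. A readthrough read comes from a polymerase that passed the end of a gene before its transcript was cut, so a change in such reads mixes how much the gene was transcribed with how late it was cleaved, and the counts cannot tell these apart. In bulk libraries, fewer cells making an RNA and less RNA per cell cannot be told apart either.

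The CTRLim libraries held 229855, 540074 and 492306 reads after removal of polyadenylated reads and splicing intermediates, and the IM_1h libraries held 673042, 573238 and 802732. Of these, 10202, 20486 and 18935 reads in CTRLim and 29428, 25232 and 35199 in IM_1h ran past a transcript end. CTRLim replicate 1 was the shallowest, with 35 of the tested genes at 0 reads against 0 to 2 in the other 5 libraries. Counts of CTRLim replicates 2 and 3 agreed within sampling noise over the tested genes (chi-square per degree of freedom 1.03, p = 0.28), as did those of IM_1h replicates 1 and 2 (0.969, p = 0.749) and 1 and 3 (1.05, p = 0.117), while IM_1h replicates 2 and 3 differed (1.12, p = 0.00547). The first CTRLim library differed from both others by the same chi-square test (1.23, p = 9.67e-07 and 1.18, p = 5.63e-05). The labels call all of them biological replicates and their totals differ, so each was kept as a library, and the count of calls with the closest pair of each group summed is given below. Of 14 K562 markers, 13 were in the table and 12 had a read, 2235 reads in all. The fetal globin HBG1 gave the most (1012 reads) and the embryonic globin HBZ had none. Summed over the markers the level was 844, 468 and 587 reads per 1000000 library reads (RPM) in CTRLim and 738, 724 and 731 RPM in IM_1h. Lymphoid, monocyte, fibroblast and epithelial markers gave 7 reads of CD3D, 2 of EPCAM and 1 of LYZ, with CD4, CD3G, CD79A, PDGFRB, COL1A2 and CDH1 at 0.

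After 1 h of imatinib the genes that moved were few and mostly lower. PIM1, ID1 and CISH lost most of their readthrough reads, and single members of the FOXO list fell less (1.71-fold for TXNIP, 2.27-fold for GADD45A). NELFE rose, but its call held in only 8 of 19 alternatives and the source of its reads is uncertain. CITED2 was higher too, from few reads and as a description only. A gene was tested when its readthrough reads summed to 30 or more, which left 988, and of these 15 changed (1.52%; edgeR quasi-likelihood test with Benjamini-Hochberg adjustment at 0.05). Of these, 13 were lower (1.32%) and 2 higher (0.202%). The tested genes as a whole leaned the other way: the 3 IM_1h libraries lay outside the CTRLim range for 182 genes (18.4%), with 128 of them higher (13%) and 54 lower (5.47%). The median log2 fold change was 0.19, with 632 genes above 0, and TMM scaling moved that median to 0.00. Relative to the median the lower genes were lower still: with TMM 17 genes were called, 0 higher and 17 lower, and with total readthrough reads as library size 18 were called, 1 higher and 17 lower, against 2 higher and 13 lower here. The count of calls was 23 (8 higher, 15 lower) without CTRLim replicate 1 and 9 (0 higher, 9 lower) without IM_1h replicate 1. With CTRLim 2 and 3 and IM_1h 1 and 2 summed, an alternative chosen after the data were seen, 7 of the 15 remained: PIM1, ID1, CISH, TMEM273, VMP1, GADD45A and ENSG00000288681.

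**Figure D1:**
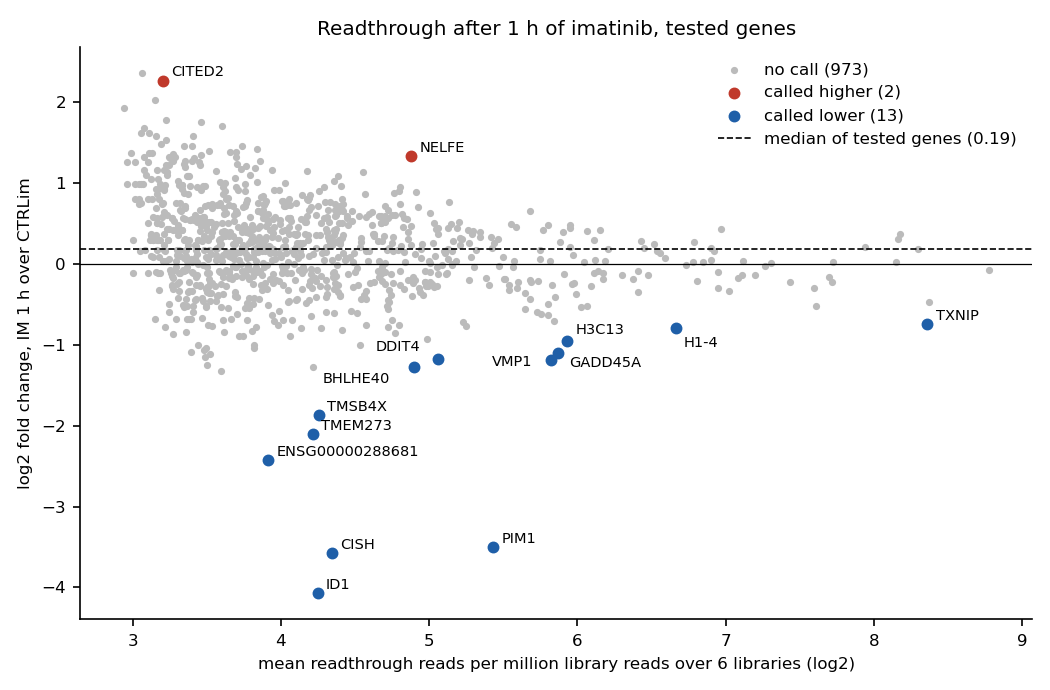
Log2 fold change of readthrough reads (IM_1h over CTRLim, vertical axis) against mean level over the 6 libraries (horizontal axis, log2 RPM), 1 point per tested gene, with the called genes named. PIM1, at -3.50, ID1 and CISH lie lowest, while the dashed line marks the median of 0.19.

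The largest falls were in 3 STAT5 targets. PIM1, a kinase that promotes survival and is encoded at chr6:37170152-37175428 (GRCh38, plus strand), had 82.7, 79.6 and 77.2 RPM in CTRLim and 4.46, 5.23 and 9.97 RPM in IM_1h. The libraries of each group lay close together and far from the other group. It fell 12.2-fold, from 79.8 ± 2.74 to 6.55 ± 2.98 RPM (SD, n = 3 each; log2 fold change -3.50, SE 0.346, edgeR adjusted p = 1.00e-20). ID1, which binds basic helix-loop-helix factors and keeps them off DNA, had 34.8, 46.3 and 26.4 RPM in CTRLim and 2.97, 3.49 and 0 RPM in IM_1h. No IM_1h library had more than 2 reads of it, against 8 to 25 in CTRLim. With 46 reads against 4, its level fell by a ratio of 18.7 (95% exact counting interval 6.82 to 71.4; edgeR adjusted p = 1.38e-11). CISH, a SOCS-family inhibitor of cytokine receptor signalling, had 39.2, 31.5 and 42.7 RPM in CTRLim and 2.97, 1.74 and 3.74 RPM in IM_1h. The lowest CTRLim library lay far above the highest IM_1h library. With 47 reads against 6, the ratio was 12.7 (interval 5.43 to 36.4; edgeR adjusted p = 1.30e-10). These intervals cover counting error only. ID1 and CISH met the 30-read minimum through their CTRLim reads, and with a minimum of 1 read both were still called (edgeR adjusted p = 1.96e-10 and 1.61e-09). All 3 genes were called under each alternative setting run for them, with an adjusted p of at most 0.000324.

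CISH is shown with its promoter because STAT5 binds DNA as a dimer at TTCNNNGAA, which reads the same on both strands. The 250 bases before its start (RefSeq, GRCh38.p14, chr3:50611775-50612024, minus strand) hold 4 matches, in capitals, which begin 241, 230, 129 and 112 bases before the start.
CISH promoter: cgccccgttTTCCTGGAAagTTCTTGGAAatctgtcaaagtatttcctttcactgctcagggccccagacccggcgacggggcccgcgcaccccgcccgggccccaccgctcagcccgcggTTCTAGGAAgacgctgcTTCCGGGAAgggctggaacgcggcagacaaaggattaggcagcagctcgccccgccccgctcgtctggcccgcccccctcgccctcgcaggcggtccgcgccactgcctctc
Over the window from 250 bases before to 50 bases after the start, the motif occurred in 7.88% of 27305 promoters, in 58 of 773 tested genes with a promoter (7.50%) and in 1 of 13 called genes (7.69%), which was CISH. A match in this window is a description of the letters, and PIM1 and ID1 had none here. The ends past which readthrough was counted carried a polyadenylation hexamer in the STAT5 targets, AATAAA or ATTAAA, shown in capitals with the bases up to the annotated end (GRCh38; PIM1 chr6:37175404-37175428 plus, ID1 chr20:31606483-31606510 plus, CISH chr3:50606490-50606515 minus).
PIM1 end: tttgAATAAAaaccttttgtcttaa
ID1 end: tgttATTAAAcaaataatttagatggtg
CISH end: ctatAATAAAatgatacctttcatgt

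The values for the whole STAT5 list include these 3 genes. Its 3 other tested members, MYC, MCL1 and PIM2, were not called. Of its 15 members 6 were tested, 3 were called lower and 0 higher, and in 5 the groups did not overlap, lower in each. Over all tested genes 1.32% were called lower, 18.4% lay apart and 5.47% lay apart and lower. The members' median log2 fold change was -2.09, or -1.56 with the low-count genes at the bound of their interval, against 0.19 over all tested genes. With a minimum of 10 reads, which adds low-count members, it was -0.68. Their summed level was 283, 261 and 260 RPM in CTRLim and 95.1, 68.0 and 94.7 RPM in IM_1h. MYC, the growth factor-dependent transcription factor, had 82.7, 57.4 and 60.9 RPM in CTRLim and 43.1, 36.6 and 43.6 RPM in IM_1h. Its IM_1h libraries were all below its CTRLim libraries, yet it did not pass the test (log2 fold change -0.62, SE 0.254, edgeR adjusted p = 0.230). MCL1, an anti-apoptotic BCL2 relative, had 26.1, 20.4 and 18.3 RPM against 16.3, 12.2 and 16.2 RPM (log2 fold change -0.44, edgeR adjusted p = 0.668). The groups of PIM2, a kinase related to PIM1, overlapped (log2 fold change -0.68, edgeR adjusted p = 0.578).

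Of the 41 ERK immediate early and feedback genes in the table, 4 had enough reads and 0 were called. Their median was -0.27, or -0.55 without IM_1h replicate 3 and -0.62 with a minimum of 10 reads. KLF6, an immediate early zinc finger factor, had 13.1, 13 and 12.2 RPM in CTRLim and 5.94, 5.23 and 8.72 RPM in IM_1h. Its groups did not overlap, but the difference did not pass the test (log2 fold change -0.87, SE 0.544, edgeR adjusted p = 0.444). MYC also belongs to this list, and JUN and DUSP1, an AP-1 subunit and a MAP kinase phosphatase, had log2 fold changes of 0.08 and 0.30. Summed over the list the level was 191, 146 and 171 RPM against 123, 112 and 130 RPM, so IM_1h lay below CTRLim in each library.

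FOXO target genes split in direction. TXNIP, which inhibits thioredoxin and limits glucose uptake (chr1:145992435-145996579, minus strand), had 496, 374 and 372 RPM in CTRLim and 273, 229 and 225 RPM in IM_1h. CTRLim replicate 1 was the highest, and the groups did not overlap. TXNIP fell 1.71-fold, from 414 ± 71.1 to 243 ± 26.8 RPM (SD, n = 3 each; log2 fold change -0.74, SE 0.183, edgeR adjusted p = 0.00553). GADD45A, a stress gene linked to growth arrest, had 104, 72.2 and 67.0 RPM in CTRLim and 34.2, 38.4 and 34.9 RPM in IM_1h. The IM_1h libraries lay close together, below each CTRLim library. It fell 2.27-fold (log2 fold change -1.10, SE 0.251, edgeR adjusted p = 0.00153). This call was lost with DESeq2 on library totals (adjusted p = 0.0985) and with all 18 libraries in the edgeR fit (0.429). CITED2, a partner of the CBP and p300 coactivators at chr6:139371807-139374648 (minus strand), went the other way with 0, 3.70 and 4.06 RPM in CTRLim and 14.9, 14 and 18.7 RPM in IM_1h. It had at most 2 reads in a CTRLim library and 8 or more in each IM_1h library, through which it met the 30-read minimum. With 33 reads against 4, it was higher by a ratio of 5.08 (95% exact counting interval 1.81 to 19.7, edgeR adjusted p = 0.0267). The call was lost with a minimum of 10 reads or of 1 read (edgeR adjusted p = 0.0670 and 0.197), so the CITED2 value is a description. CDKN1B, the cell cycle inhibitor p27, did not pass the test (log2 fold change -0.48, edgeR adjusted p = 0.693).

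Of the FOXO list 22 genes were in the table and 4 tested, with 2 called lower and 1 higher (1.32% and 0.202% over all tested genes) and a median of -0.61, which turned to 1.09 with a minimum of 10 reads. Its summed level was 626, 481 and 475 RPM in CTRLim and 377, 340 and 346 RPM in IM_1h. TXNIP made up most of that level in each library, so the sum mainly repeats the TXNIP values. The TXNIP call held in 15 of 19 alternatives. It was lost, among others, without IM_1h replicate 2 (edgeR adjusted p = 0.139) and without IM_1h replicate 3 (0.187), with a range of 1.88e-05 to 0.756. The CITED2 call was lost without CTRLim replicates 1, 2 or 3 (0.0682, 0.132 and 0.138) and without IM_1h replicates 1 or 3 (0.0702 and 0.103), with a range of 0.0227 to 0.892, and TMM scaling gave 0.0765.

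Among ATF4 and unfolded protein response genes the mTORC1 inhibitor DDIT4 had 39.2, 35.2 and 63.0 RPM in CTRLim and 10.4, 29.7 and 22.4 RPM in IM_1h. The highest IM_1h library lay just below the lowest CTRLim library. DDIT4 fell 2.20-fold, from 45.8 ± 15.0 to 20.8 ± 9.73 RPM (log2 fold change -1.18, SE 0.312, edgeR adjusted p = 0.0130). ATF4 itself, the transcription factor of the amino acid response, had 74.0, 66.7 and 63.0 RPM against 43.1, 48.8 and 38.6 RPM. Its groups did not overlap, and it did not pass the test (log2 fold change -0.63, SE 0.250, edgeR adjusted p = 0.212), whereas with TMM it did (adjusted p = 0.0498, highest over its alternatives 0.977). The glutamine transporter SLC38A2 had 113, 75.9 and 102 RPM against 68.3, 75.0 and 76.0 RPM, with a log2 fold change of -0.35 (edgeR adjusted p = 0.444). DDIT3 and DNAJB9, a stress transcription factor and a chaperone of the endoplasmic reticulum, both had a log2 fold change of 0.66 without passing the test. Over the list, 26 genes were in the table, 6 tested, 1 called lower (1.32% over all tested genes) and 0 higher, 2 apart and lower and 1 apart and higher (5.47% and 13%), with a median of 0.02 that became -0.16 with TMM, -0.16 without CTRLim replicate 2 and -0.35 with a minimum of 10 reads. The DDIT4 call held in 10 of 19 alternatives and in neither DESeq2 fit. It was also lost without CTRLim replicate 3 (edgeR adjusted p = 0.501) and without IM_1h replicate 1 (0.317). Its adjusted p ranged from 0.00376 to 0.756.

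The 15 called genes included 6 that were in none of the 26 lists. BHLHE40, a helix-loop-helix repressor of stress and circadian programs, had 39.2, 48.1 and 38.6 RPM in CTRLim and 10.4, 22.7 and 19.9 RPM in IM_1h. The groups were apart, with IM_1h replicate 1 the lowest. It fell 2.37-fold (log2 fold change -1.27, SE 0.330, edgeR adjusted p = 0.0111). The call held in 11 of 19 alternatives and in neither DESeq2 fit. It was also lost without CTRLim replicate 2 (edgeR adjusted p = 0.161) and without IM_1h replicate 1 (0.254), over a range of 0.00214 to 0.517. VMP1, a protein of the endoplasmic reticulum needed for autophagy, had 47.9, 70.4 and 112 RPM in CTRLim and 38.6, 40.1 and 29.9 RPM in IM_1h. CTRLim replicate 3 stood highest and the groups did not overlap. VMP1 fell 2.12-fold (log2 fold change -1.19, SE 0.247, edgeR adjusted p = 0.000293). The call held in 15 of 19 alternatives and in neither DESeq2 fit. It was also lost without CTRLim replicate 3 (log2 fold change -0.82, edgeR adjusted p = 0.241, over a range of 1.88e-06 to 0.568). The counted VMP1 transcript, annotated as a retained intron, has 1 exon, spans chr17:59837931-59842255 and ends with the gene, in the region of the miR-21 gene. It covers only the last part of VMP1, and whether its reads began at the VMP1 start was not tested.

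TMEM273 had 34.8, 35.2 and 22.3 RPM in CTRLim and 7.43, 1.74 and 9.97 RPM in IM_1h. Its groups were far apart, and it fell 4.82-fold (log2 fold change -2.11, SE 0.434, edgeR adjusted p = 0.000293). TMSB4X, which binds actin monomers, had 4.35, 44.4 and 38.6 RPM in CTRLim and 11.9, 5.23 and 9.97 RPM in IM_1h. CTRLim replicate 1, with 1 read, was the lowest of all, so the groups overlapped. TMSB4X fell 3.23-fold (log2 fold change -1.87, SE 0.395, edgeR adjusted p = 0.000328). The call held in 14 of 19 alternatives and in neither DESeq2 fit. It was also lost without CTRLim replicate 2 (edgeR adjusted p = 0.128, over a range of 5.95e-06 to 0.387). The unnamed gene ENSG00000288681 had 30.5, 20.4 and 26.4 RPM in CTRLim and 5.94, 3.49 and 3.74 RPM in IM_1h. The groups were apart, and it fell 5.86-fold (log2 fold change -2.43, SE 0.511, edgeR adjusted p = 0.000328), but its last exon overlaps IFITM1 on the same strand, so its reads are uncertain. TMEM273 and ENSG00000288681 met the 30-read minimum through their CTRLim reads. With a minimum of 1 read both were still called (edgeR adjusted p = 0.00297 for both). The strand of counting is not given in the sources used here, which leaves antisense neighbours uncertain as well.

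**Figure D2:**
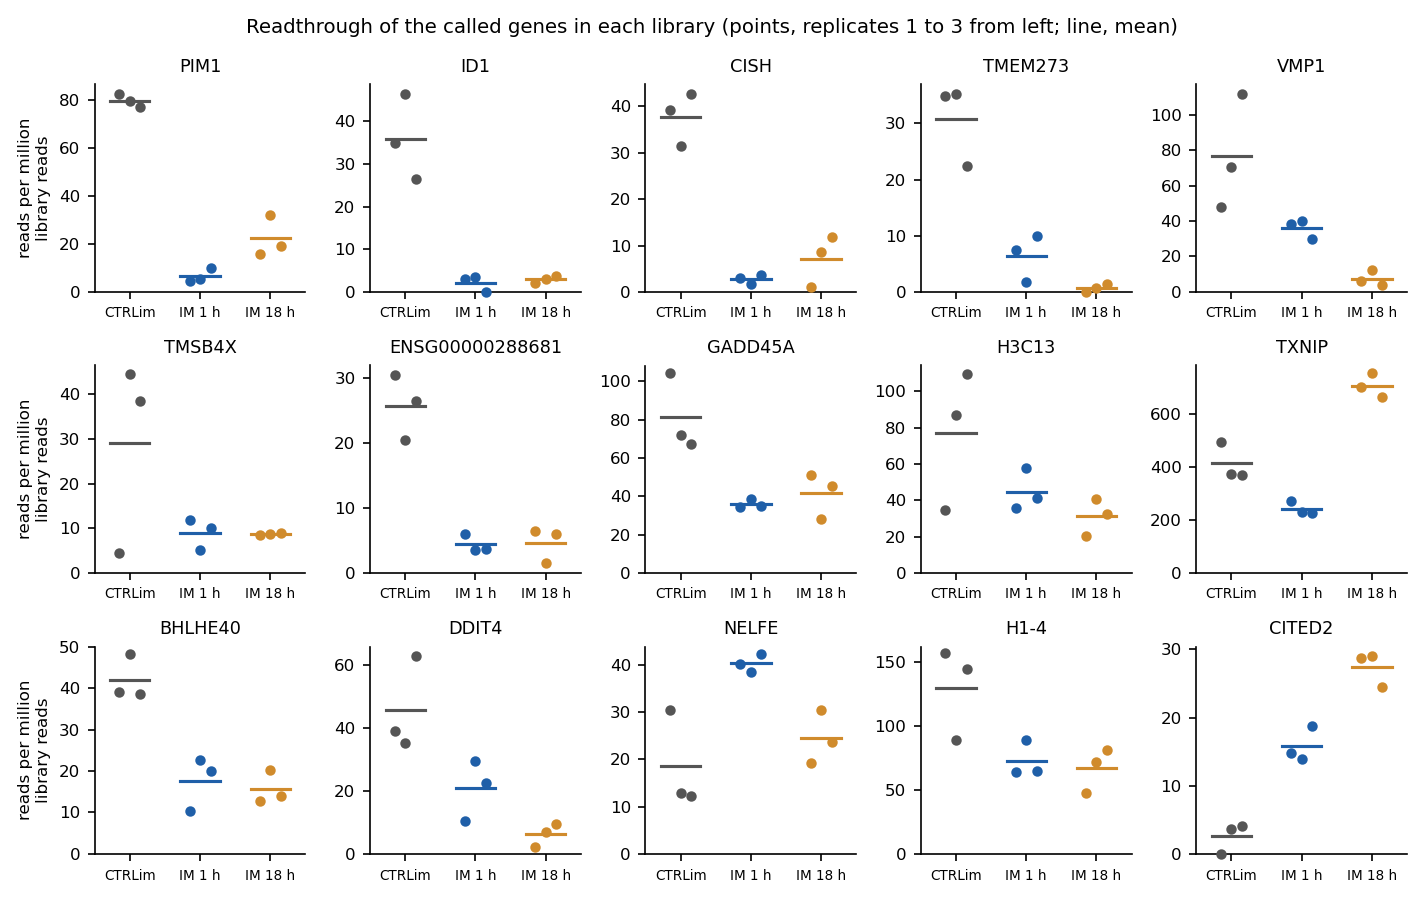
Readthrough level in RPM (vertical axes) of the 15 called genes in CTRLim, IM_1h and IM_18h, 1 point per library with a line at the mean of 3. Mean PIM1 goes from 79.8 RPM in CTRLim to 6.55 in IM_1h, and the CTRLim and IM_1h points overlap for H3C13, H1-4 and TMSB4X.

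Replication-dependent histone genes leaned lower as a class. Their transcripts end in a stem-loop cut by a dedicated machinery in place of a poly(A) tail. Of the 63 listed, 39 were tested, 2 were called lower (1.32% over all tested genes) and 0 higher, 28 had a log2 fold change below 0 and 11 above, and the median was -0.19 against 0.19 over all tested genes (-0.38 against 0.00 with TMM). Without IM_1h replicate 1 the histone median was -0.12. Their summed level was 3124, 3442 and 3410 RPM in CTRLim and 2836, 3095 and 2687 RPM in IM_1h. Each IM_1h library lay below each CTRLim library, with means of 3325 ± 175 and 2873 ± 206 RPM (SD, n = 3 each). H1-4, a linker histone, had 157, 88.9 and 144 RPM in CTRLim and 63.9, 89.0 and 64.8 RPM in IM_1h. IM_1h replicate 2 and CTRLim replicate 2 met near 89 RPM, so the groups overlapped. H1-4 fell 1.79-fold (log2 fold change -0.80, SE 0.213, edgeR adjusted p = 0.0135). H3C13, a copy of core histone H3, had 34.8, 87.0 and 110 RPM in CTRLim and 35.7, 57.6 and 41.1 RPM in IM_1h. CTRLim replicate 1 was the lowest of the 6 libraries. H3C13 fell 1.72-fold (log2 fold change -0.95, SE 0.235, edgeR adjusted p = 0.00553), though near-identical H3 copies make the source of its reads uncertain.

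Both histone calls were lost without CTRLim replicate 3 (edgeR adjusted p = 0.362 for H3C13 and 0.294 for H1-4), without IM_1h replicate 1 (0.175 and 0.238) and without IM_1h replicate 3 (0.0956 and 0.219). Over all alternatives the adjusted p ran from 1.66e-05 to 0.964 for H3C13 and from 0.000712 to 0.756 for H1-4. The H3C13 call held in 10 of 19 alternatives and the H1-4 call in 11 of 19, neither with DESeq2. In 7 of the 39 histone genes the groups did not overlap, all 7 lower and 0 higher, where over all tested genes the groups lay apart in 18.4%, lower in 5.47% and higher in 13%. H2AC13, a core H2A gene and the most abundant member named here, had 322, 402 and 423 RPM against 279, 316 and 245 RPM (log2 fold change -0.47, SE 0.182, edgeR adjusted p = 0.212). It passed with TMM, with total readthrough scaling and without CTRLim replicate 1 (edgeR adjusted p from 0.000134 to 0.898 over its alternatives). Of the next most abundant members, H2AC15 had a log2 fold change of 0.03 and H2BC12 of -0.22, neither past the test (edgeR adjusted p = 0.949 and 0.656).

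Histone ends are printed because they differ in kind from the other ends. A perfect inverted repeat with a stem of 6 and a loop of 4 bases lay in the last 40 bases of 32 of 39 tested histone transcripts (82.1%) and 20 of 917 others (2.18%). AATAAA or ATTAAA occurred in 6 of those histone ends (15.4%) and 654 of the others (71.3%). Capitals mark the inverted repeat (GRCh38; H3C13 chr1:149813225-149813254 minus, H1-4 chr6:26157086-26157115 plus).
H3C13 end: gtcgatctaaaGGCTCTTTTCAGAGCCact
H1-4 end: caacccaaaGGCTCTTTTCAGAGCCaccca
Of the 15 called genes, 10 had a hexamer at the end (66.7%), against 660 of the 956 tested genes with an annotated end (69.0%).

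NELFE rose among the called genes. It encodes a subunit of NELF, the complex that holds paused RNA polymerase II near promoters (chr6:31952087-31959038, minus strand). It had 30.5, 13 and 12.2 RPM in CTRLim and 40.1, 38.4 and 42.4 RPM in IM_1h. CTRLim replicate 1 stood closest to the IM_1h libraries without reaching them. NELFE rose 2.17-fold, from 18.5 ± 10.3 to 40.3 ± 1.99 RPM (log2 fold change 1.33, SE 0.354, edgeR adjusted p = 0.0130). Its end lies 1 nt from the end of CFB, the complement factor B gene that runs toward it, so reads of either are uncertain. The call was lost without CTRLim replicate 2 (edgeR adjusted p = 0.161), CTRLim replicate 3 (0.241), IM_1h replicate 1 (0.0665) or IM_1h replicate 3 (0.0662) and with TMM (0.0649), over a range of 0.00129 to 0.892. It held in 8 of 19 alternatives and in neither DESeq2 fit.

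Several housekeeping classes had medians above the 0.19 of all tested genes without a called member. Over all tested genes 13% lay apart and higher and 5.47% apart and lower. Proteasome subunits had 46 genes in the table and 10 tested, with a median of 0.47 (0.29 with TMM) and 4 genes whose groups did not overlap, all higher. Their summed level was 257, 222 and 223 RPM in CTRLim and 315, 297 and 311 RPM in IM_1h, so the groups were apart. PSMC5, an ATPase of the regulatory particle, had 17.4, 22.2 and 18.3 RPM against 35.7, 31.4 and 31.1 RPM (log2 fold change 0.72, edgeR adjusted p = 0.346). The core particle subunits PSMB4 and PSMA7 had smaller log2 fold changes of 0.29 and 0.30 (edgeR adjusted p = 0.754 and 0.763). SR, hnRNP and RBM protein genes had 31 of 83 tested, a median of 0.34 (0.15 with TMM) and 7 genes apart, all higher. The most abundant members did not share that lean: RBM15, an adaptor of RNA methylation, and the splicing regulators HNRNPF and SRSF2 had log2 fold changes of -0.14, -0.01 and -0.13. Mitochondrial ribosomal protein genes had 18 of 75 tested, a median of 0.29 (0.11 with TMM), 5 genes apart and higher and 1 lower, with a summed level of 466, 468 and 433 RPM against 514, 569 and 602 RPM. None of these genes passed the test.

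Cytosolic ribosomal protein genes had 41 of 74 tested and a median of 0.13, which turned to -0.05 with TMM, with 5 genes apart and higher and 1 lower. The median was 0.24 for 18 of 97 respiratory chain genes encoded in the nucleus, 0.19 for 10 of 61 translation factor genes and 0.06 for 10 of 11 mitochondrially encoded genes, the last turning to -0.11 with TMM. It was 0.42 for 10 of 31 ribosome biogenesis genes, 0.30 for 5 of 25 glycolysis genes and 0.30 for 5 of 24 cholesterol and fatty acid synthesis genes. Cell cycle genes had 11 of 37 tested with a median of 0.39, and BCL2 family genes 3 of 15 with 0.66. The 6 tested of 26 heat shock genes had 0.14 (-0.04 with TMM), the 7 of 40 genes of 3′ end processing and termination had 0.22, and the 9 of 48 DEAD- and DEAH-box helicase genes had 0.01 (-0.17 with TMM). Zinc finger genes (29 of 463) had 0.29, solute carriers (14 of 223) 0.38, and the signalling genes around BCR-ABL1 (2 of 25) 0.46. No member of these lists was called. Leaving out CTRLim libraries moved these medians both ways: ribosome biogenesis to 0.76 without replicate 1 and 0.19 without replicate 2, and cell cycle to 0.64 without replicate 1 and 0.25 without replicate 3. The 3′ end processing median went to 0.46, 0.08 and 0.08 without replicates 1, 2 and 3. Mitochondrial ribosomal genes went to 0.45 without replicate 1 and 0.06 without replicate 3, the respiratory chain to 0.48 without replicate 1, and BCL2 family genes to 0.10 without IM_1h replicate 1. Helicase genes went to 0.30 and -0.24, cholesterol genes to 0.15 and 0.45, and mitochondrially encoded genes to 0.09 and -0.15, without CTRLim replicates 2 and 3, with 0.22 for the last and 0.15 for cholesterol genes without CTRLim replicate 1. Translation factor genes went to 0.10 without CTRLim replicate 2 and solute carriers to 0.22 without IM_1h replicate 3. Heat shock genes went to 0.03 without IM_1h replicate 1, and to 0.06 and 0.23 without CTRLim replicates 2 and 3. Cytosolic ribosomal protein genes went to 0.22 and 0.04 without CTRLim replicates 1 and 2.

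Red cell genes held no call at 1 h. Globin, heme and red cell genes had 5 of 36 tested, 0 called and a median of 0.22, or 0.57 without CTRLim replicate 1 and 0.01 without CTRLim replicate 2. HBG1, a fetal globin, had 426, 217 and 262 RPM in CTRLim and 346, 335 and 303 RPM in IM_1h. CTRLim replicate 1 stood above and CTRLim replicates 2 and 3 below the IM_1h libraries (log2 fold change 0.19, edgeR adjusted p = 0.693). The embryonic globin HBE1 had 344, 181 and 252 RPM against 312, 316 and 331 RPM (log2 fold change 0.37, edgeR adjusted p = 0.371), and UROD, an enzyme of heme synthesis, 370, 167 and 173 RPM against 233, 263 and 265 RPM (0.22, 0.662). Without CTRLim replicate 1 all 3 passed the test, at log2 fold changes of 0.45 for HBG1, 0.57 for HBE1 and 0.58 for UROD (edgeR adjusted p = 0.0175, 0.00111 and 0.00260, up to 0.998 over the alternatives), and without CTRLim replicate 2 HBG1 turned to -0.02. The erythroid and megakaryocytic transcription factor genes had 6 of 17 tested and 0 called. Their median of -0.13 turned to 0.30 with a minimum of 10 reads, 0.10 without CTRLim replicate 3, 0.03 without IM_1h replicate 1 and 0.02 without IM_1h replicate 2. Megakaryocyte and platelet genes had 9 in the table and 0 tested, with 2 reads in CTRLim and 9 in IM_1h.

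**Figure D3:**
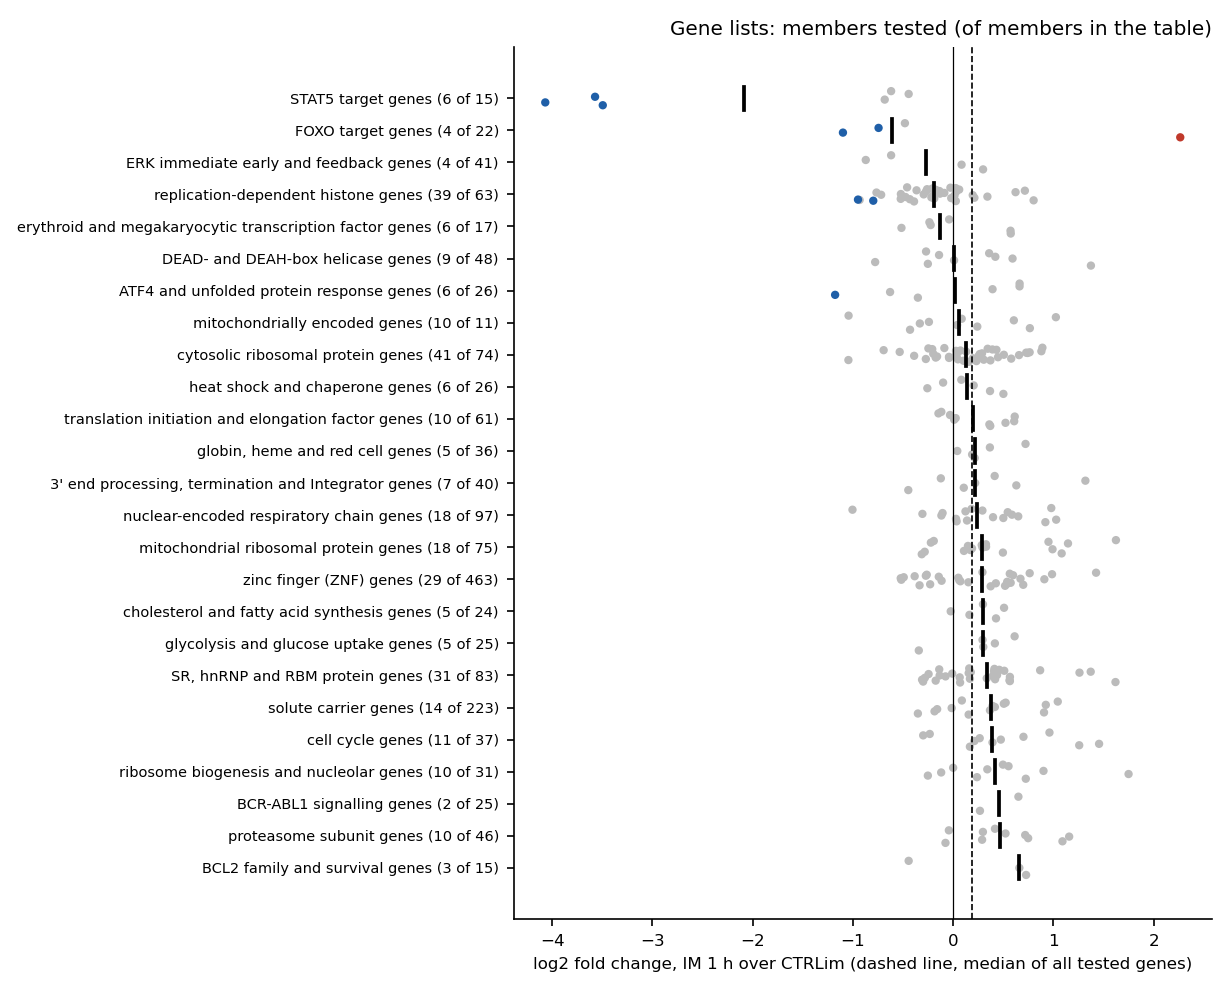
Log2 fold change of each tested gene by list (1 point per gene, with the median of the list marked), beside the median of all 988 tested genes at 0.19. The STAT5, FOXO, ERK, histone and erythroid transcription factor lists have medians below 0, from -2.09 to -0.13, of which FOXO turns to 1.09 and the erythroid list to 0.30 with a minimum of 10 reads.

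Below the threshold, the non-overlapping genes with the largest log2 fold changes included genes not yet named. POLR2B, the second largest subunit of RNA polymerase II, had 8.70, 0 and 2.03 RPM in CTRLim and 14.9, 12.2 and 12.5 RPM in IM_1h. All IM_1h libraries were higher, and it met the 30-read minimum through them (edgeR adjusted p = 0.0561). RASSF5, a RAS effector, had 30.5, 24.1 and 26.4 RPM against 4.46, 8.72 and 17.4 RPM, lower in each IM_1h library (log2 fold change -1.27, edgeR adjusted p = 0.104). SHTN1, RFC5, PPIL2 and NOP58 were also higher in each IM_1h library, from at most 3 reads in any CTRLim library, so they too were tested because of their IM_1h reads. The lower genes SNRPE, NAP1L4, ADAT2 and MT-CYB had log2 fold changes of -1.32, -1.25, -1.11 and -1.04. The edgeR adjusted p of these 10 genes ran from 0.0561 to 0.306. Genes under 30 reads were not tested here, and those high in 1 group reach a lower minimum through that group, so genes on either side are given as reads only and were chosen after their values were seen. LUC7L3, a splicing factor, had 0, 1 and 0 reads in CTRLim and 7, 9 and 6 in IM_1h, and SMAD3, a TGF-beta effector, 0, 0 and 1 against 9, 3 and 10. KDM7A, a histone demethylase, had no CTRLim read and 5, 8 and 3 reads in IM_1h. BCL2L11, which encodes the pro-apoptotic BIM, had 0, 2 and 1 reads against 11, 5 and 10. On the lower side, the angiogenic factor gene VEGFA had 2, 8 and 7 reads against 3, 1 and 6, and TRIB3, a stress pseudokinase, 4, 3 and 3 against 1, 1 and 2. Of the genes the study discusses, EIF4A2, DDX17, WDR43 and RBM14 had log2 fold changes of 0.03, 0.42, 0.50 and -0.17, and none passed the test (edgeR adjusted p = 0.531 to 0.949).

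Of the 15 called genes 13 were in the shortest length class and 11 had at most 5 exons. Of 319 tested genes in the shortest length class, 2 were called higher and 11 lower, against 0 of 318 in the middle class and 2 lower of 319 in the longest. Genes with 1 exon had a median of -0.03 over 83 genes, those with 2 to 5 exons 0.17 over 341 and those with more than 5 exons 0.24 over 532. Without histone genes the 46 genes with 1 exon had a median of 0.17. By level, the upper class of 325 genes had 1 call higher and 8 lower and a median of 0.08, and the lower class of 351 genes had 1 higher and 1 lower and a median of 0.29. Of the 689 tested genes whose last exon overlaps no other protein-coding gene, 2 were called higher and 12 lower, with a median of 0.19, the same as over all tested genes. Genes with a neighbour on the same strand within 5000 nt downstream had a median of 0.09 over 189 genes, those with an opposite neighbour 0.26 over 302, and those with none 0.17 over 465.

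The share of library reads that were readthrough reads was 4.03 ± 0.358% in CTRLim and 4.39 ± 0.0147% in IM_1h (SD, n = 3 each), a difference of 0.36 percentage points that did not pass the test (two-sided exact permutation p = 0.4). By library it was 4.44%, 3.79% and 3.85% in CTRLim and 4.37%, 4.40% and 4.38% in IM_1h, so CTRLim replicate 1 alone lay above IM_1h. Without it the difference was 0.567 percentage points (exact permutation p = 0.1, the smallest possible). Tested genes took 2.78%, 2.36% and 2.33% of library reads in CTRLim and 2.54%, 2.56% and 2.54% in IM_1h. CTRLim replicate 1 stood above the IM_1h libraries and the other CTRLim libraries below them (difference 0.0602 percentage points, two-sided exact permutation p = 1). The 12063 transcripts below 30 reads took 1.66%, 1.44% and 1.51% in CTRLim and 1.83%, 1.84% and 1.84% in IM_1h. Here each IM_1h library lay above each CTRLim library, at 1.84 ± 0.00610% against 1.54 ± 0.114% (SD, n = 3 each; two-sided exact permutation p = 0.1, the smallest that 3 against 3 libraries can give). The 10 transcripts with the most reads held 8.51%, 7.45% and 7.36% of readthrough reads in CTRLim and 6.53%, 6.86% and 6.23% in IM_1h.

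**Figure D4:**
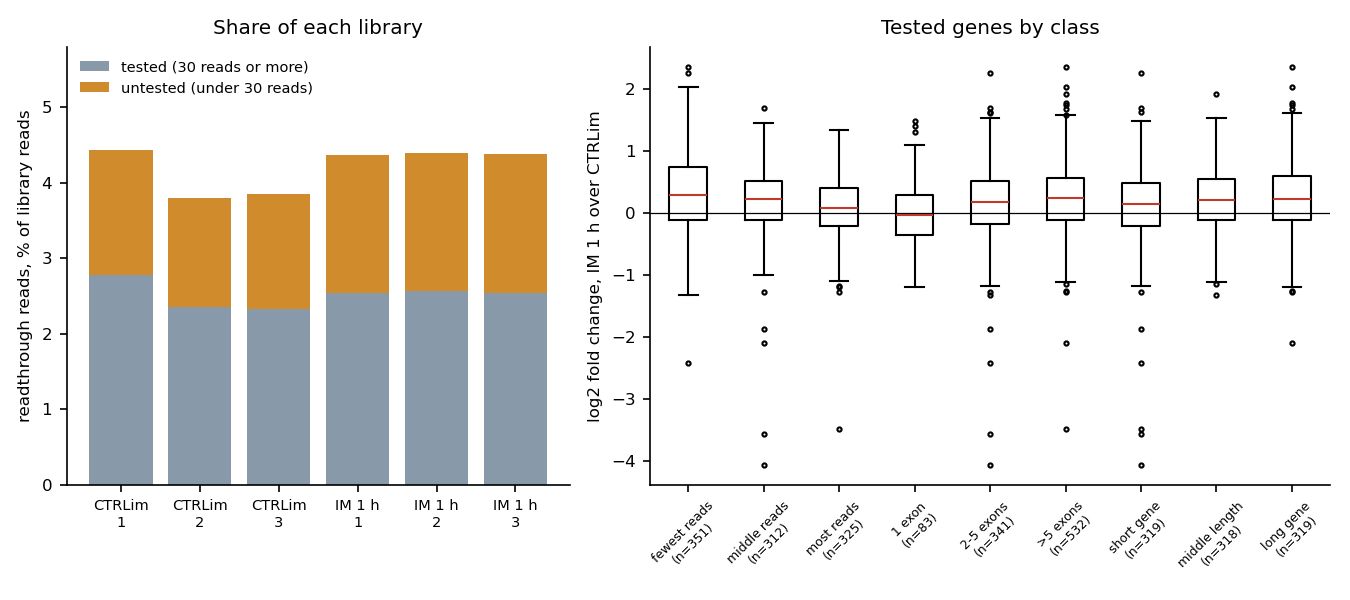
Left, stacked bars of the percent of library reads that were readthrough reads in each CTRLim and IM_1h library, split into tested genes and transcripts under 30 reads; right, boxes (median, quartiles, whiskers to 1.5 times the interquartile range) of log2 fold change by class of read number, exons and gene length. Low-read transcripts lie at 1.83 to 1.84% in IM_1h against 1.44 to 1.66% in CTRLim.

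At 18 h in the drug the early genes took different courses. The IM_18h group is compared with the same CTRLim libraries, so its values are only set beside those at 1 h, and the difference between the times was not tested. Against CTRLim, 172 of the 988 genes were called at 18 h (17.4%), 31 higher and 141 lower. PIM1 was at 22.4 ± 8.52 RPM at 18 h (SD, n = 3; log2 fold change against CTRLim -1.80, edgeR adjusted p = 1.07e-05), between its CTRLim and 1 h levels. CISH was at 7.18 ± 5.54 RPM and ID1 at 2.99 ± 0.798 RPM. VMP1 was at 7.54 ± 4.52 RPM, below its 36.2 ± 5.52 RPM at 1 h, and DDIT4 was at 6.27 ± 3.81 RPM against 20.8 ± 9.73 RPM. TXNIP was at 709 ± 46.8 RPM, above CTRLim (log2 fold change 0.79, SE 0.211, edgeR adjusted p = 0.00710), having been below it at 1 h. GADD45A was at 41.5 ± 11.9 RPM and H1-4 at 67.1 ± 17.3 RPM, each differing from its 1 h mean by less than the SD of its 18 h libraries. CITED2 was at 27.4 ± 2.54 RPM (log2 fold change 3.05, edgeR adjusted p = 0.000115), and NELFE at 24.5 ± 5.73 RPM no longer passed the test (0.60, 0.328).

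JTE-607 blocks CPSF73, the endonuclease that cuts transcript ends, and was given for the same time. Its response, against its own CTRL libraries, differed from the imatinib response for 4 of 988 genes (0.405%; edgeR test of the difference between the responses), 0 above and 4 below. These were PIM1, ID1, DDIT4 and RPL38. PIM1 had 66.5, 46.3 and 92.8 RPM in CTRL and 32.6, 54.5 and 38.3 RPM in JTE_1h, groups that overlapped. Its response to imatinib was lower than to JTE-607 by a log2 difference of -2.83 (SE 0.607, edgeR adjusted p = 0.0117). RPL38, a ribosomal protein gene named because the count is small, had 22.2, 19.5 and 19.3 RPM in CTRL and 67.5, 148 and 139 RPM in JTE_1h. It was called for its JTE-607 response, since in the imatinib set it had 39.2, 25.9 and 40.6 RPM against 25.3, 24.4 and 33.6 RPM (difference -2.84, edgeR adjusted p = 0.0117). For ID1 the difference was -4.50, a description, since ID1 met the 30-read minimum through its CTRLim reads (46 against 4 in IM_1h). For DDIT4 it was -3.89 (edgeR adjusted p = 0.0388), with DDIT4 at 0, 19.4 and 88.0 RPM in JTE_1h. Without JTE_1h replicate 3 the DDIT4 difference was -1.91.

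The JTE-607 count rests on single libraries, and JTE_1h replicate 1 had a readthrough share of 3.06% against 5.40% and 5.05% in the others. It was 0 without CTRL replicate 2, CTRLim replicate 3, IM_1h replicate 1 or IM_1h replicate 2, where edgeR still gave 82, 68, 67 and 58 genes at an unadjusted p under 0.05. It was 2 without CTRLim replicate 2, IM_1h replicate 3 or JTE_1h replicate 3, 7 without CTRL replicate 1 and 23 without JTE_1h replicate 1. PIM1 and RPL38 lost the call in those first 4 fits (edgeR adjusted p = 0.0515 to 0.116). ID1 lost it in 9 left-out fits and DDIT4 in 8, with adjusted p up to 0.499 and 0.824 over their alternatives.

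Against CTRL, KCl lowered 199 of the 988 genes and raised 12, and the imatinib response differed from the KCl response for 226 genes (22.9%), 219 above and 7 below, with a median difference of 0.99. TMM scaling moved that median to 0.14 and the count to 115 (81 above, 34 below), and without KCl_45min replicate 3 the count was 131. PIM1 was low under both: it had 17.0, 3.19 and 0.947 RPM in KCl_45min (log2 fold change against CTRL -3.49, edgeR adjusted p = 2.01e-06), and the responses differed by 0.08 (SE 0.657, adjusted p = 0.945). Over its 16 alternatives that difference ran from -0.93 to 1.78, and 0 passed the test. CISH had 25.0, 26.8 and 19.3 RPM in CTRL and 2.44, 0 and 0.947 RPM in KCl_45min, with a difference of 0.58 (SE 0.996, edgeR adjusted p = 0.731). TXNIP had 63.8, 132 and 135 RPM in CTRL and 2.44, 19.1 and 9.47 RPM in KCl_45min. Its imatinib response was higher by 2.71 (SE 0.632, edgeR adjusted p = 0.000769). NELFE had 55.4, 24.4 and 19.3 RPM in CTRL and 12.2, 3.19 and 3.79 RPM in KCl_45min. It moved in opposite directions under KCl and imatinib, by a difference of 3.82 (SE 0.678, edgeR adjusted p = 1.54e-05).

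For GADD45A, at 27.7, 46.3 and 19.3 RPM in CTRL and 2.44, 3.19 and 2.84 RPM in KCl_45min, the difference was 2.29 (SE 0.717, edgeR adjusted p = 0.0123). For CITED2, at 2.77, 12.2 and 3.87 RPM in CTRL and 4.87, 3.19 and 0.947 RPM in KCl_45min, it was 3.73, a description, since CITED2 was tested because of its IM_1h reads. TXNIP and NELFE passed the test under each of 16 alternatives. GADD45A lost it with TMM (edgeR adjusted p = 0.168) and without CTRL replicate 2 (0.0834) or KCl_45min replicate 3 (0.0758), over a range of 0.00574 to 0.168.

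**Figure D5:**
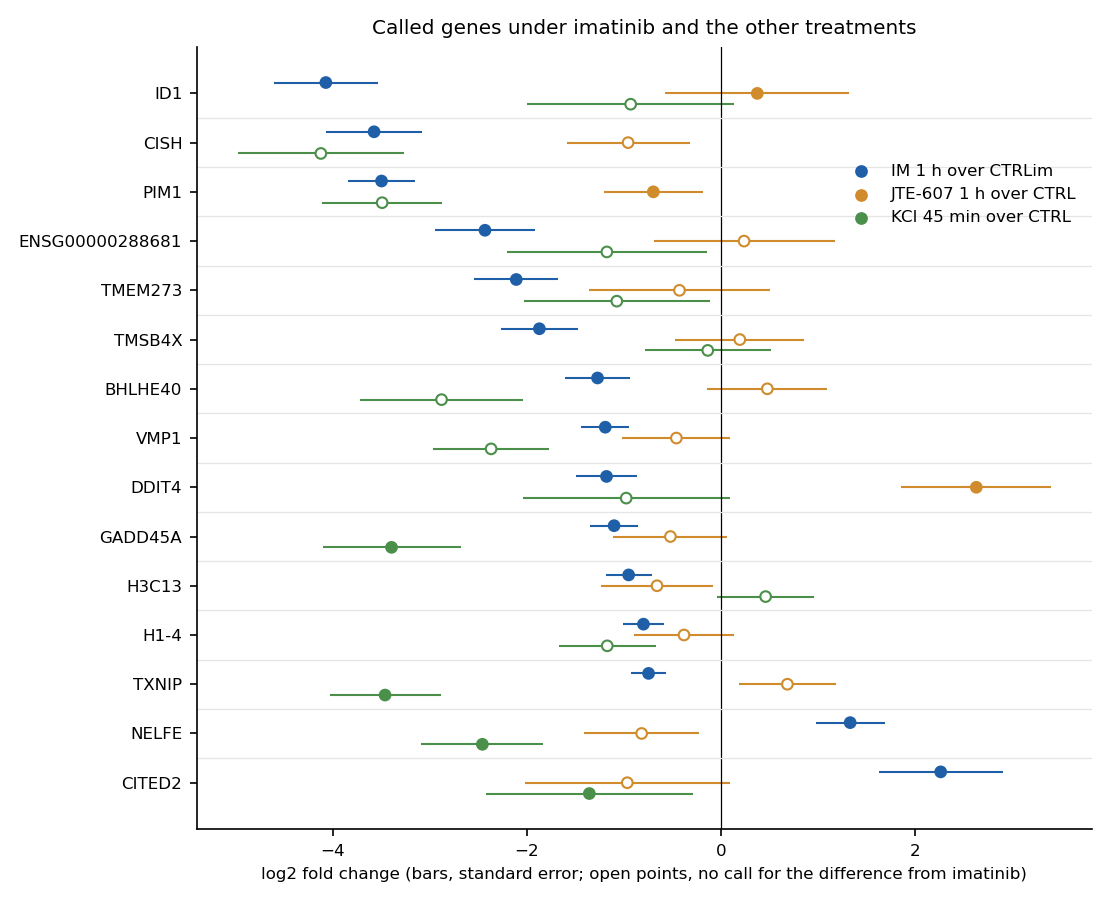
Log2 fold change with its standard error of the called genes under imatinib (IM_1h over CTRLim), JTE-607 (JTE_1h over CTRL) and KCl (KCl_45min over CTRL). PIM1 lies at -3.50 with imatinib, -0.70 with JTE-607 and -3.49 with KCl.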

How the data were processed

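The values are deposited counts of readthrough reads per transcript and library, made by the authors from PacBio reads of chromatin-bound RNA (cutadapt 3.4, minimap2 2.22, UMICollapse 1.0.0 to remove duplicates); a read counts when it runs at least 100 nt past the annotated end. Library sizes are the reads left after removal of polyadenylated reads and splicing intermediates, as the study lists them, with no further scaling factor. CTRLim held 229855 to 540074 reads and IM_1h 573238 to 802732.

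Genes with at least 30 reads over the 6 libraries were tested with edgeR 4.0.16 (quasi-likelihood, 2-sided, Benjamini-Hochberg, 0.05) in R 4.3.3; differences between responses were contrasts over 12 libraries. Shares were compared by exact permutation. Named genes were all called genes, the most abundant members of each list, the 5 highest and 5 lowest uncalled genes without overlap, and genes the study discusses, not all of which are named; PIM2, JUN, DDIT3 and DNAJB9 were added after their values were seen. Lists were described by counts and medians only. Members and lists were chosen with earlier results of these data known. GENCODE 44 (GRCh38) matched 12704 of 13051 transcripts; promoters came from RefSeq. Alternatives were TMM, total readthrough or mapped reads as library size, DESeq2 1.42.0, minimums of 1, 10 or 60 reads, a replicate block, more libraries in the fit, and leaving out each library. Chosen after seeing the data were genes whose last exon overlaps no other protein-coding gene, last-exon overlap classes, exon classes without histone genes, and the closest replicates summed. Other steps used matplotlib 3.10.9, scipy 1.17.1, numpy 2.4.6 and pandas 2.3.3 under Python 3.11.15. Only the edgeR and DESeq2 fits were tested on simulated counts.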

Additional observations from a re-analysis of the deposited data

Results flagged for a closer look

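For 7 of the called genes the response to 1 h of imatinib differed from the response to another treatment. Each response was set against its own untreated libraries, and the difference itself was tested (edgeR, adjusted over 988 genes). Of the 15 called genes 3 differed from JTE-607, against 0.405% over all tested genes. From KCl 4 differed, a share near the 22.9% over all tested genes. The 15 genes were called from the IM_1h and CTRLim libraries that also enter these differences. Their shares are therefore not independent of that choice, and no conclusion is drawn from them. ID1 and CITED2 met the 30-read minimum through the group where they were high, so their values are descriptions. Against JTE-607 the log2 difference was -2.83 for PIM1, lower in 3 of 3 IM_1h libraries (adjusted p = 0.0117, past the threshold in 12 of 16 alternatives, 0.000505 to 0.116). It was -3.89 for DDIT4 (edgeR adjusted p = 0.0388, 6 of 16, 0.000103 to 0.824), and -1.91 without JTE_1h replicate 3. For ID1 it was -4.50, a description, since 46 reads in CTRLim against 4 in IM_1h brought it past the 30-read minimum. ID1 had at most 11.3 RPM in a JTE_1h or 13.9 RPM in a CTRL library, so few reads carry its JTE-607 side.

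Against KCl the log2 difference was 2.29 for GADD45A (edgeR adjusted p = 0.0123) and 2.71 for TXNIP (0.000769), which were lower under both treatments and more so with KCl. It was 3.82 for NELFE (edgeR adjusted p = 1.54e-05) and 3.73 for CITED2, which were higher in 3 of 3 IM_1h libraries; CITED2 met the 30-read minimum through its IM_1h reads (33 against 4 in CTRLim), so its value is a description. TXNIP and NELFE passed in 16 of 16 alternatives and GADD45A in 13.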

How the results depend on the processing

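The 15 called genes kept their direction under every alternative run. The count of calls was 7 with DESeq2's size factors, 4 with DESeq2 on library totals, 9 with a minimum of 1 read, where 9061 genes share the adjustment, 5 with all 18 libraries in the fit, 7 with the closest replicates summed and 9 to 23 with 1 library left out; beyond the larger or smaller set of genes or libraries, the cause was not tested. The difference from the JTE-607 response gave 2 genes with TMM, 2 with DESeq2 and 0 to 23 with 1 library left out. The difference from KCl gave 115 with TMM, 142 with DESeq2 and 131 to 248 with 1 library left out. Lists with a called member went from 4 to between 2 and 5. The log2 fold change of HBG1 lay between -0.0151 (without CTRLim replicate 2) and 0.4537 with 1 library left out. The difference in readthrough share (0.36 percentage points) lay between 0.0602 and 0.567 percentage points.

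Replicate numbers did not visibly pair the samples: same-numbered CTRLim and IM_1h libraries correlated at -0.00929, 0.00910 and -0.0202. Where replicates differ by little more than counting noise, this check cannot exclude pairing. In the other set same-numbered CTRL and JTE_1h libraries correlated at 0.189, 0.0356 and 0.208, and different-numbered ones at -0.217 to 0.107. For CTRL and KCl_45min the values were 0.184, 0.0344 and 0.196 against -0.221 to 0.0694. In neither case were all same-numbered values over 0.1. With the replicate block 10 genes were called in the main comparison, 0 higher and 10 lower, without H3C13 (edgeR adjusted p = 0.0834), DDIT4 (0.0793), BHLHE40, NELFE and CITED2 (0.0592 each), and 10 for JTE-607 and 210 for KCl; the share had an exact p of 0.5 (smallest 0.25). Not every library of the CTRLim and IM_1h groups correlated best with its own number.

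Of the other values compared, 805 kept their side and direction or moved by less than the replicate spread, 76 lost a call, 13 gained one and 67 moved by more; HBG1 changed sign as above. Medians of the FOXO, erythroid transcription factor, ATF4, DEAD-box, heat shock, cytosolic ribosomal and mitochondrially encoded lists also changed sign under an alternative. So did the log2 fold changes of uncalled genes near 0, among them RBM15, HNRNPF, SRSF2, H2AC15 and EIF4A2. Depth limits which genes could be tested: 12063 of 13051 transcripts had under 30 reads.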
